A study of Drosophila melanogaster with 9 samples.

Results

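The RNA of whole control flies is described here from 5 of the 9 libraries of the series. They are the libraries whose titles call them control, and the authors' sample sheet gives all 5 the genotype w1118, a laboratory stock of Drosophila melanogaster that carries a deletion in the eye pigment gene white. All 5 were made from whole flies aged to day 8 of adult life and kept on 1 diet of 8% yeast and 9% sugar. Poly(A) RNA was sequenced, the authors counted reads per gene, and levels are given as CPM, the count of a gene scaled by the total count of its library. Sex, the number of flies in a library and whether libraries came from separate crosses or vials are not given in the labels, so the SD printed here is the spread between these 5 libraries and may be partly technical. There is 1 group, so there is no contrast and no p-value.

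RNA of a whole fly is a mixture. The oenocytes and fat body make lipids and cuticular hydrocarbons, the gut secretes digestive enzymes, the thorax is packed with muscle, the head holds the eyes and brain, and the reproductive tract of males makes sperm and large amounts of seminal fluid protein. A gene can therefore be high because a tissue is large or because its cells make much of that RNA, and fewer cells of a type and less RNA per cell cannot be told apart in these data.

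The libraries held 17345101 to 19093675 counts over 14865 listed genes, and between 12505 and 12689 of these genes reached 1 CPM in a library. For controls 4 and 5 a genotype tag in the labels names the mutant, against the title and the authors' sheet, and the other 3 libraries have no such conflict. The libraries were taken by title, and calls that change when only controls 1 to 3 are used are named beside them. The authors' sheet numbers replicates otherwise: controls 3, 4 and 5 here are its replicates 5, 3 and 4. No pair of libraries agreed within sampling noise: chi-square divided by its degrees of freedom ran from 18.0 to 44.8 over the 10 pairs. Control 3 stood apart on the first principal component, which carried 44.1% of the variance, with a score of -21.2 against -1.08 to 13.3 for the other 4 libraries. On the second component, with 26.5%, controls 1 and 5 scored 12.8 and 7.71 and control 2 scored -11.7.

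Genes encoded in the mitochondrial genome were not analysed here, so ranks and shares of counts are among nuclear genes. Among these, the RNA was led by 1 gene. Cyp4g1 (chromosome X, 467057 to 469335, BDGP6), the cytochrome P450 that carries out the last step of cuticular hydrocarbon synthesis in oenocytes, reached 31759, 26604, 31052, 26786 and 31721 CPM in controls 1 to 5. It took 2.96% ± 0.265 of all counts (SD, n = 5). The next gene, eEF1alpha1, which carries aminoacyl-tRNA to the ribosome, had a mean of 7394 ± 443 CPM. The third was apolpp, the apolipoprotein precursor that the fat body secretes to carry lipid in the haemolymph, at 5574, 5815, 4169, 4300.2 and 4934 CPM. Its lowest values were those of controls 3 and 4.

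Counts were otherwise spread over many genes. The 10 highest genes of a library held 6.82% ± 0.322 of its counts, the 100 highest 20.4% ± 0.358 and the 1000 highest 55.6% ± 0.557. Ranked by their mean, 23 genes were needed to reach 10% of the counts, 763 to reach 50% and 5066 to reach 90%. A mean of at least 1 CPM was found for 12601 genes, of at least 100 CPM for 2234 and of at least 1000 CPM for 95. Protein-coding genes held 98.9% of the counts.

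**Figure D1:**
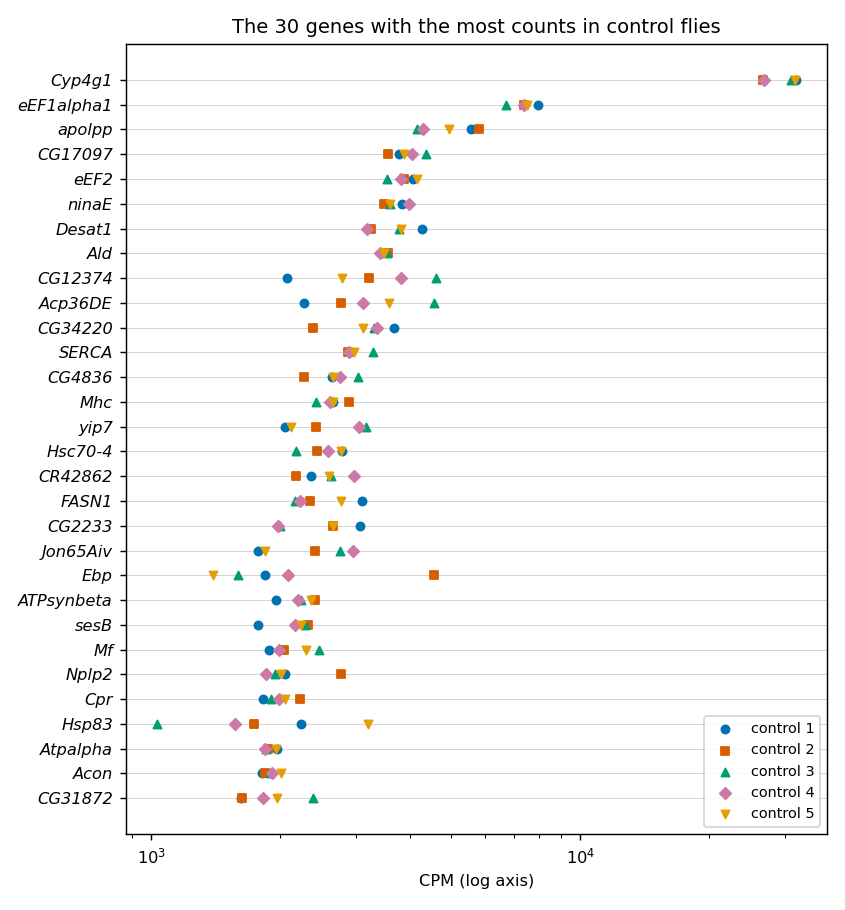
The 30 genes with the highest mean level, 1 row per gene, with CPM on a log axis and 1 point per control library. Cyp4g1 lies apart on the right, Ald is nearly the same in all 5 libraries, and Ebp (control 2) and Hsp83 (controls 5 and 3) have single libraries far from the rest.

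Lipid and hydrocarbon enzymes were among the highest genes. Besides Cyp4g1, the 30 highest genes held Cpr, the reductase that passes electrons to P450 enzymes, at 1993 ± 152 CPM. FASN1, a fatty acid synthase, stood at 3103, 2340.2, 2157, 2221 and 2766 CPM and Desat1, the acyl-CoA desaturase that puts double bonds into fatty acids, at 4265, 3253, 3775, 3182 and 3827 CPM. Both were highest in control 1. The cytochrome P450 family as a whole summed to 34090.2 ± 2833 CPM, of which Cyp4g1 was most, and the next members, Cyp313a1 (480.2 CPM) and Cyp6g1 (463 CPM), were far lower.

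Genes of translation and energy supply formed another block. The 92 listed cytosolic ribosomal protein genes summed to 45143 ± 1958 CPM, which was 4.51% of counts. eEF2, which moves the ribosome along the message, had 3902 ± 241 CPM. Aldolase (Ald) of glycolysis had 3434, 3561, 3552, 3405 and 3485 CPM, a CV of 2.00%, which made it the steadiest of the 30. ATPsynbeta, the catalytic subunit of mitochondrial ATP synthase, had 2230.3 ± 178 CPM, and sesB, the carrier that exchanges ADP for ATP across the inner membrane, 1774, 2317, 2283, 2168 and 2229.6 CPM, with control 1 low. The 14 glycolysis genes summed to 11256 ± 867 CPM and the 13 nuclear ATP synthase genes to 8082 ± 564 CPM.

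Muscle gave an even signal. The 31 genes of the contractile apparatus, all above 10 CPM, summed to 18322, 19149, 19575, 19202 and 19714 CPM in controls 1 to 5, a range of 1.08-fold. Mhc, the muscle myosin heavy chain, had 2654, 2883, 2427, 2602 and 2655 CPM. Mf, a myofibril protein of insects, had 2130.2 CPM, bt, the projectin gene, 1569 CPM, and SERCA, the pump that returns calcium to the sarcoplasmic reticulum, 2898, 2866, 3284, 2884 and 2974 CPM. Single members were less even than the sum: Act88F, the actin of indirect flight muscle, had 45.03, 105, 100.3, 51.5 and 89.5 CPM, with controls 1 and 4 low, and 20 of the 31 genes were lowest in control 1, as were 24.5% of all tested genes.

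Eyes and nervous system were also steady. The 29 photoreceptor genes summed to 9903 ± 422 CPM. ninaE, the opsin of the outer photoreceptors R1 to R6, was the sixth highest gene at 3848, 3479.7, 3608, 3989 and 3604 CPM, and the arrestins Arr2 and Arr1, which shut off active rhodopsin, had 1403 ± 75.6 and 1040.0 ± 37.4 CPM. The highest and lowest libraries differed 1.15-fold for ninaE and 1.10-fold for Arr1. The 21 neuronal genes summed to 3120.3 ± 207 CPM, led by cpx (588 ± 41.8 CPM), a clamp of synaptic vesicle fusion, and nrv3 (322 ± 19.2 CPM), a subunit of the neuronal sodium pump.

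The gut gave large secreted enzymes. The 34 listed midgut proteases summed to 17336 ± 2644 CPM. CG12374, a predicted carboxypeptidase, led at 2076, 3224, 4599, 3810.5 and 2786 CPM, followed by the serine proteases yip7 (2052, 2416, 3161, 3043 and 2115 CPM), which is outside the list, and Jon65Aiv (1768, 2406, 2754, 2946 and 1837 CPM). The 22 genes of carbohydrate and lipid digestion summed to 6633 ± 1619.9 CPM, led by the maltase Mal-A1 (1292 ± 335 CPM) and the amylase Amy-p (952 ± 301 CPM). The 9 genes of the Malpighian tubules, the fly kidney, summed to 572 ± 11.5 CPM and the 9 enteroendocrine peptide genes 256 ± 10.2 CPM.

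Male reproductive genes were abundant in all 5 libraries. The 63 accessory gland and seminal fluid genes summed to 17358 ± 3032 CPM, the 41 testis and sperm genes to 12283 ± 1625 CPM and the 4 ejaculatory duct and bulb genes to 4365 ± 422 CPM. Acp36DE, a seminal fluid protein needed for sperm storage in the mated female, led with 2274, 2772, 4561, 3112 and 3573 CPM. Among sperm genes, S-Lap1, loopin-1 and S-Lap7, leucine aminopeptidases of the sperm tail, had 1560.4 ± 190.1, 1335 ± 173 and 1293 ± 163 CPM. Ebp, a protein of the ejaculatory bulb and of the mating plug, had 1845, 4563, 1590.0, 2078 and 1395 CPM, and control 2 was more than any other library.

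**Figure D2:**
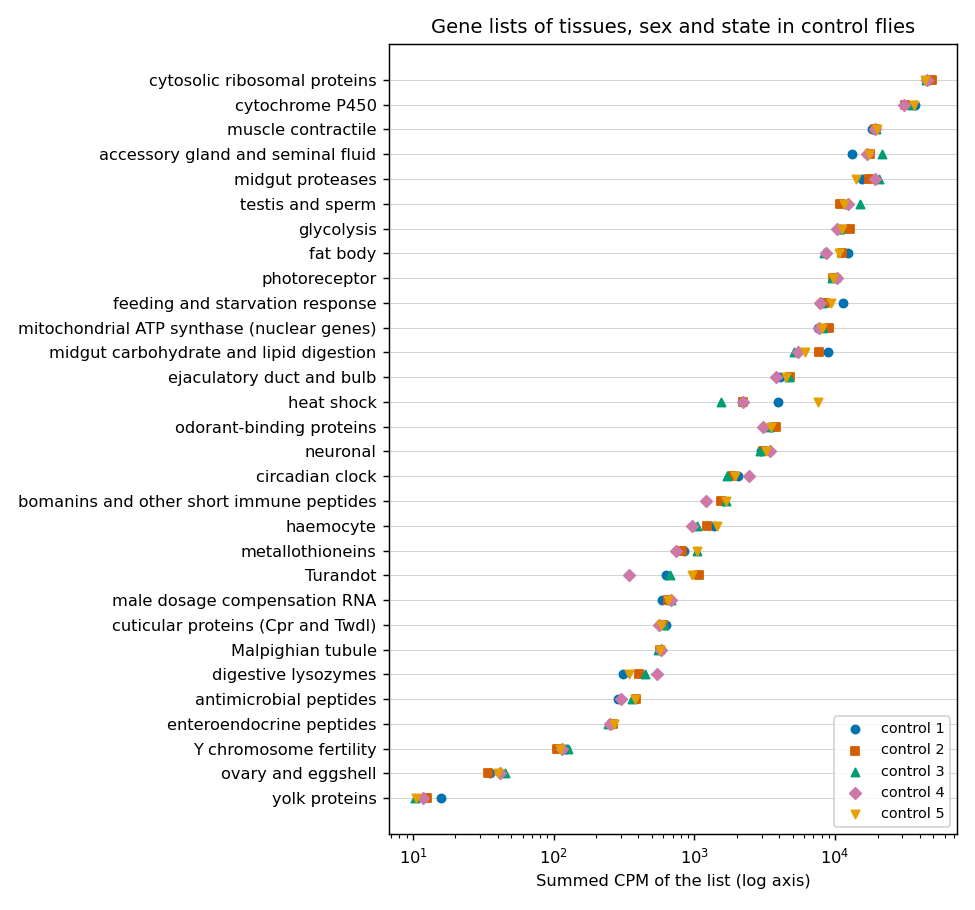
Summed CPM of each gene list on a log axis, 1 row per list and 1 point per control library. Points overlap for muscle, photoreceptor, neuronal and Malpighian tubule genes and lie apart for heat shock (1549 to 7531 CPM) and Turandot genes.

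The labels do not give the sex of the flies, so marker genes were read for it. The 3 yolk protein genes, made in the fat body and ovary of females, summed to 15.8, 12.7, 10.3, 11.8 and 10.4 CPM. The 10 listed genes of the ovary and eggshell summed to 39.4 ± 4.53 CPM, and grk, a growth factor ligand known for its part in the oocyte, was 31.0 CPM of it. roX1, a noncoding RNA of the male dosage compensation complex, had 577, 633, 672, 674 and 637 CPM, and 11 of the 12 listed Y-linked fertility genes reached 1 CPM, led by the dynein gene kl-5 at 27.1 ± 3.17 CPM. Male reproductive genes and roX1 were thus high in each library, while each yolk gene, and each eggshell gene other than grk, averaged under 10 CPM. The white gene (w) had 1.95, 1.47, 1.84, 1.52 and 0.858 CPM, or 15 to 36 counts. It overlaps kirre on the opposite strand, and the sources used here do not say whether strand was used in counting.

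Scaled to transcript length, the order changed. Levels per merged exon length, on the scale of TPM, kept Cyp4g1 first at 22997. Short secreted peptides then moved up: Mst57Db, a small accessory gland peptide, had rank 2 at 8694, Acp95EF rank 7 at 4816 and Mst57Da rank 10 at 4009. On this scale eEF1alpha1 stood at 5318 and ninaE at 4134, and the accessory gland and seminal fluid list summed to 55200.4, above the 8461 of muscle. Of the 30 highest genes by CPM, 11 were among the 30 highest per length. Nplp2 (2126 CPM), also among the 30 highest by CPM, had no exon length and was not ranked per length. These ranks therefore cover only genes with a length.

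The spread between libraries was small for most genes. Over the 8967 genes that averaged 10 CPM or more, the median coefficient of variation (CV, SD over mean) was 10.4%, with 5th and 95th percentiles of 4.19% and 24.1%, against a median of 3.48% from counting error alone. The biological coefficient of variation from edgeR, which sets counting error apart, was 14.7% over 12606 genes. A gene was called variable where its highest library was at least 2-fold over its lowest. This held for 324 of 8967 genes, or 3.61%. They were highest in control 2 for 132 genes (1.47% of tested genes), in control 1 for 86 (0.959%), in control 3 for 62 (0.691%), in control 5 for 24 (0.268%) and in control 4 for 20 (0.223%). They were lowest in control 3 for 164 genes (1.83%), in control 1 for 71 (0.792%), in control 4 for 32 (0.357%), in control 2 for 29 (0.323%) and in control 5 for 28 (0.312%). Control 2 was thus the most frequent highest library of variable genes and control 3 the most frequent lowest. Without control 3 the count was 186, and in controls 1 to 3 alone it was 275. The 3.61% is the background against which the counts of variable members are read below. With no minimum fold, controls 1 to 5 were the highest library for 11.8%, 24.5%, 28%, 22.2% and 13.4% of tested genes and the lowest for 24.5%, 26%, 29%, 8.04% and 12.4%. The genes nearest the threshold were CG14823 (1.998-fold) and CG5246 (1.999-fold) outside and CG8708 (2.002-fold) and GNBP1 (2.003-fold) inside.

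**Figure D3:**
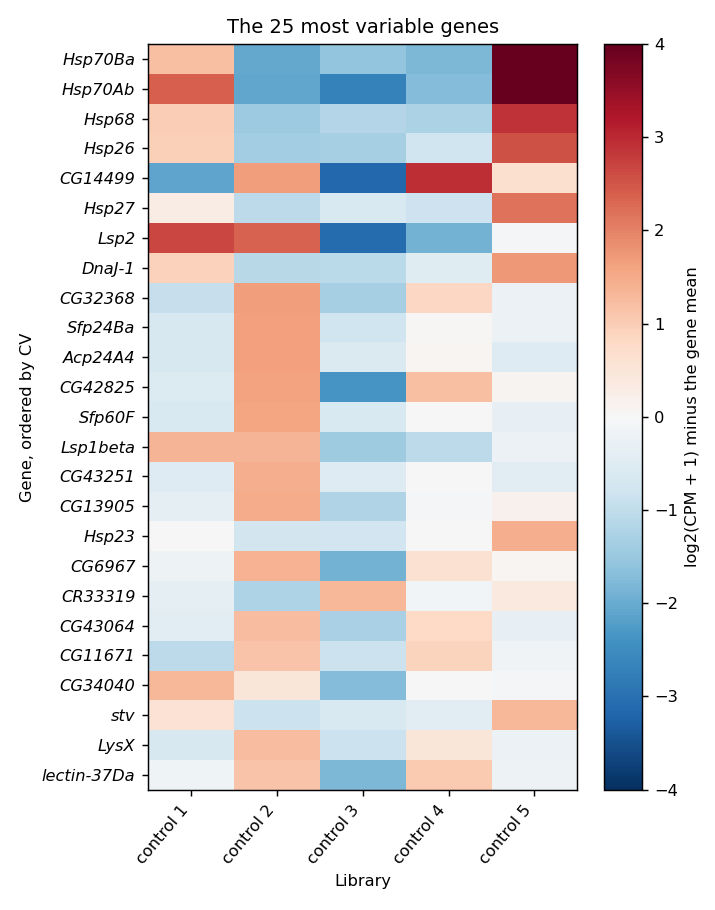
The 25 genes with the highest CV among genes of at least 10 CPM, 1 row per gene and 1 column per control library, coloured by log2(CPM + 1) minus the mean of the gene over the 5 libraries, with the colour scale ending at 4. Heat shock genes are red in control 5, the block from CG32368 to CG43251 is red mainly in control 2, and most rows are blue in control 3.

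Heat shock genes varied most. These genes encode chaperones that refold damaged proteins and are switched on within minutes by heat and other stress. Of 10 listed members above 10 CPM, 9 were variable by the 2-fold rule, and all 9 were highest in control 5, where 0.268% of tested genes were variable and highest. Of these 9, Hsp70Ba passed the 10 CPM minimum only through control 5, with 83.0 CPM against 0.0546 to 9.01 CPM in the other libraries. Its call and its highest library followed from that. The list summed to 3923, 2196, 1549, 2202 and 7531 CPM in controls 1 to 5. Control 1 came next and control 3 was lowest, and the sums spanned 4.86-fold, or 2.53-fold without control 5, when 8 of the 10 were variable. The same values, 2.53-fold and 8 of 10, were found in controls 1 to 3 alone. In both settings the 10 members were kept and the 10 CPM minimum was not applied again. The 8 thus include Hsp70Ba, which was under 10 CPM in each library but control 5.

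Among the inducible chaperones, Hsp68 (chromosome 3R, 24055080 to 24057310), of the Hsp70 family, had 294, 52.8, 65.1, 59.9 and 1107 CPM, a CV of 144%. The small heat shock proteins, which hold unfolding proteins in solution, followed the same order at the top. Hsp26 had 303, 59.6, 62.3, 90.9 and 919 CPM, Hsp27 94.7, 37.1, 50.7, 43.3 and 355 CPM and Hsp23 68.6, 39.8, 39.1, 67.9 and 187 CPM. In each, control 5 was far above the rest. For Hsp26 and Hsp27 control 1 (303 and 94.7 CPM) was also above the remaining libraries. Without control 5 Hsp23 was no longer variable (1.76-fold), which was also so in controls 1 to 3 alone. All 3 genes lie on 3L, with starts from 9376418 to 9384063.

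Co-chaperones had the same highest library. DnaJ-1, the Hsp40 that delivers clients to Hsp70, had 558, 136, 139, 207 and 979 CPM, and stv, a nucleotide exchange factor of Hsp70, 294, 108, 128, 141 and 489.8 CPM. Hsp83, the fly Hsp90, is abundant without stress and ranged over 2229, 1737, 1033, 1566 and 3197 CPM, with its lowest value in control 3. Hsromega, a noncoding RNA of heat-shocked nuclei, had 323, 141, 147, 124 and 468 CPM, and it was picked once its values were known. CG4456, the remaining listed member above 10 CPM, was highest in control 3 at 1.46-fold over its lowest library.

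The Hsp70 genes themselves rested on few counts outside controls 1 and 5. Hsp70Ab had 40.7, 0.873, 0.231, 1.36 and 138 CPM and Hsp70Ba 9.01, 0.0546, 0.461, 0.262 and 83.0 CPM. The other listed Hsp70 genes had means of 0.217 to 4.198 CPM. The copies are nearly identical in sequence, and the sources used here do not say how reads that match several copies were counted, so the split between copies is uncertain. Hsc70-4, the constitutive cognate, was among the 30 highest genes at 2776, 2439, 2169.9, 2586 and 2768 CPM.

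**Figure D4:**
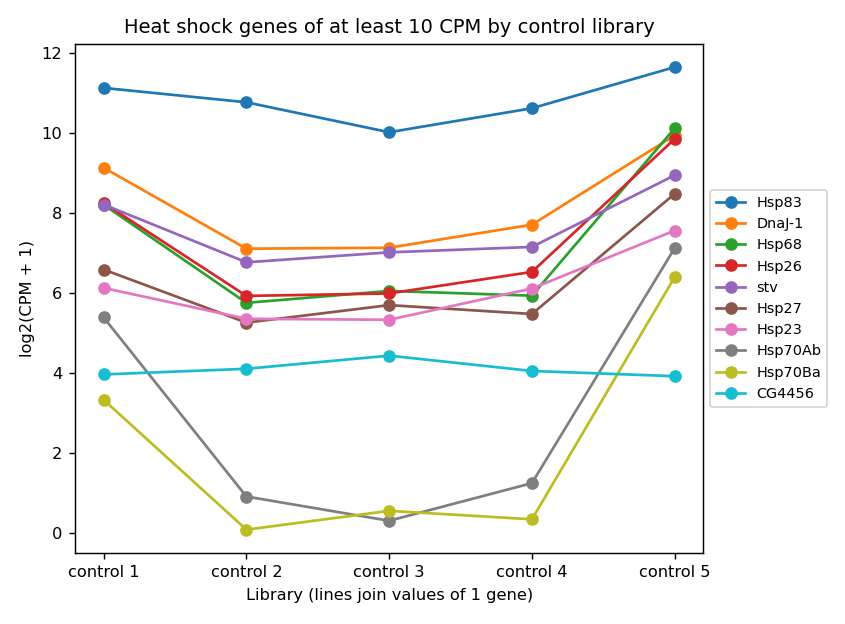
log2(CPM + 1) of the 10 heat shock genes above 10 CPM, by control library, with a line joining the values of 1 gene. Control 5 is the highest point of 9 genes and control 1 the next in each of them, while CG4456 stays near 4.

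Storage proteins and fat body genes split the libraries in another way. Lsp2, a hexamerin that larvae store as an amino acid reserve, had 295, 236, 4.50, 11.6 and 43.8 CPM, and Lsp1beta, another hexamerin, 218, 219, 31.2, 40.2 and 71.9 CPM. Both were high in controls 1 and 2 and low in controls 3 and 4, and Lsp2 spanned 65.5-fold, or 25.3-fold without control 3. The fat body list summed to 12349, 11245, 8370.1, 8657 and 10577 CPM, and 9 of its 12 members above 10 CPM were lowest in control 3, against 29% of tested genes. Of the 12, 5 were variable, against 3.61% of tested genes, and 3 were variable without control 1 or without control 3. Tsf1, the iron carrier transferrin of the haemolymph, had 1825, 1274, 885, 829 and 1324 CPM, and without control 1 it spanned 1.597-fold, below the 2-fold rule.

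Of 12 genes tied to feeding state and above 10 CPM, 7 were highest in control 1, against 11.8% of tested genes. Of the 12, 4 were variable, all 4 highest in control 1, where 0.959% of tested genes were variable and highest. The lists overlap: bmm, FASN1 and Pepck are also in the fat body list, and tobi is in that of carbohydrate and lipid digestion. Counts from these lists are therefore not independent. tobi, an alpha-glucosidase gene that dietary protein and sugar regulate, had 1215, 839, 292, 252 and 468 CPM. bmm, the lipase that empties lipid droplets, had 208, 106, 84.0, 123 and 124 CPM. Thor, the inhibitor of cap-dependent translation 4E-BP, had 407, 147, 308, 347 and 324 CPM, and sug, a zinc finger regulator of sugar and lipid metabolism, 108, 31.9, 58.5, 67.1 and 78.7 CPM. For Thor and sug the low library was control 2, while for tobi controls 3 and 4 were low. Without control 2, 2 of the 12 members were variable.

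The list of carbohydrate and lipid digestion, of which tobi is also a member, held 21 genes above 10 CPM. Of these, 11 were variable, 8 of them (tobi included) highest in control 1, where 0.959% of tested genes were variable and highest. The lowest library was control 3 for 12 of the 21, against 29% of tested genes. Amy-p, an alpha-amylase, had 1403, 1038, 630.0, 730.5 and 959 CPM, and the maltases Mal-A6, Mal-A7 and Mal-A8 had the same order at both ends. Mal-A7 had 477, 374, 180.5, 230.2 and 242 CPM. CG6283, a predicted lipase, had 104, 64.2, 19.1, 42.3 and 46.9 CPM. The list summed to 8948, 7629, 5086, 5438 and 6063 CPM. Not all members took part: the maltase Mal-A5 had 86.9, 91.9, 94.9, 95.8 and 93.5 CPM and the predicted lipase CG6295 623, 542, 612, 583 and 599 CPM. Without control 1 or without control 3, 7 members were variable, and Amy-p (1.65-fold and 1.92-fold) and Mal-A6 (1.67-fold and 1.75-fold) were then under the rule.

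Digestive proteases varied in a different order. Of 29 members above 10 CPM, with a median exon length of 913 bases, 14 were variable. This compares with 3.61% of tested genes and 6.69% of those from 500 to under 1000 bases. Control 5 was the lowest library for 16 members, where 12.4% of tested genes, and 19.3% of those under 1000 bases, were lowest. Jon25Bi, a Jonah serine protease of the midgut, had 388, 382, 229, 345 and 153 CPM, Jon99Fi 125, 181, 137, 199 and 67.2 CPM and Jon65Aii 36.4, 53.5, 45.7, 46.1 and 17.2 CPM. In each, control 5 was the low library. Others were highest in control 3, such as CG12374 (values above), Jon74E (434, 305, 667, 447 and 494 CPM) and CG17571 (62.7, 79.0, 142, 87.3 and 85.0 CPM). Without control 5, and also in controls 1 to 3 alone, 6 members were variable, and without control 2 or control 3, 9 were. Jon99Fi spanned 1.59-fold without control 5 and 1.45-fold in controls 1 to 3. CG12374 spanned 1.65-fold without control 1 and 1.84-fold without control 3. Among trypsins, alphaTry had 1593, 1706, 1979, 1911 and 1525 CPM and was not variable, while thetaTry (91.6, 114.7, 138, 143 and 67.3 CPM) and etaTry were.

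A group of male genes was high in control 2. Ebp lies on chromosome 2R, 25175126 to 25176715, beside EbpII (2R, 25173568 to 25174230), another ejaculatory bulb protein, and Sfp60F (2R, 25172245 to 25172695), a seminal fluid protein, all on the reverse strand. EbpII had 471, 1733, 682, 645 and 795 CPM and Sfp60F 248, 1126, 247, 374 and 299.7 CPM. For all 3 neighbours the value of control 2 was the one outside the others, and without it they spanned 1.49-fold, 1.69-fold and 1.51-fold. EbpIII, which lies elsewhere on 2R, was lowest in control 2 at 1934, 1565, 2088, 1599 and 1977 CPM.

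Seminal fluid genes of another neighbourhood, on 2L between 3667977 and 3693905, behaved alike. Sfp24Ba had 21.1, 105, 18.7, 34.5 and 27.9 CPM, Sfp24Bb 152, 447, 129, 201 and 138 CPM and Acp24A4 50.8, 249, 52.9, 84.4 and 55.2 CPM. Sfp87B, on 3R, had 426, 1377, 542, 654 and 603 CPM. These 4 and Sfp60F were the 5 variable genes of the accessory gland list that were highest in control 2. Without control 2, Sfp24Ba spanned 1.84-fold and Acp24A4 1.66-fold.

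Most of the accessory gland list took another order. Of its 58 members above 10 CPM, 42 were highest in control 3 and 45 lowest in control 1, against 28% and 24.5% of tested genes. Of the 58, 17 were variable, 12 of them highest in control 3, where 0.691% of tested genes were variable and highest. The list is one of short genes, with a median exon length of 584 bases. Of all tested genes under 500 bases 16.2% were variable, and of those from 500 to under 1000 bases 6.69%. Among the 62 variable genes highest in control 3, 39 were under 1000 bases. Acp76A, a serpin of the seminal fluid, had 124, 169, 485, 205 and 319 CPM, Acp62F, a trypsin inhibitor, 148, 234, 429, 228 and 314 CPM and Spn28F, a serpin, 392, 536, 891, 600.5 and 681 CPM. The list summed to 13105, 17705, 21636, 16864 and 17479 CPM. Sex peptide (SP), which changes the behaviour of the mated female, had 102, 159, 164, 135 and 145 CPM and was not variable. Without control 1, 7 members were variable, and without control 2 or control 3, 11 were. Without control 1 Acp36DE spanned 1.65-fold, and 1.57-fold without control 3. It was also just under the rule with TMM factors (1.95-fold) and with RLE factors (1.95-fold). Spn77Bb, a serpin, spanned 2.09-fold, 1.90-fold without control 2 and 1.70-fold without control 3.

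Most testis genes shared their highest library. None of the 34 members above 10 CPM was variable, and 31 of them were highest in control 3, where 28% of all tested genes were highest. S-Lap1 had 1507, 1395, 1885, 1549 and 1466 CPM, betaTub85D, the tubulin of the sperm tail, 691, 617, 837, 700.1 and 664 CPM and Mst77F, a protein of sperm chromatin, 448, 407, 613, 444 and 431 CPM. The lowest library was control 2 for 22 of the 34, control 5 for 7, control 1 for 4 and control 4 for 1. Of all tested genes, 26%, 12.4%, 24.5% and 8.04% were lowest in these libraries, in the same order. For the 3 genes named, control 3 was outside the other 4 libraries and control 2 was lowest. The list summed to 11772, 10816, 15025, 12308 and 11492 CPM, and without control 3 its range was 1.14-fold.

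Transcript length moved with these orders. In control 3 the median deviation from the gene mean, on the log2(CPM + 1) scale, was 0.21 for genes with exons under 500 bases and -0.11 for genes of 8000 bases and more. In control 1 the corresponding values were -0.19 and 0.03, and in control 4 they were 0.02 and 0.09. Of 1472 tested genes under 1000 bases, 49.3% were highest in control 3 and 37.4% lowest in control 1. The median exon length was 584 bases in the accessory gland list, 1264.5 in the testis list, 7098 in the neuronal list and 2069 over tested genes. Of the variable genes 36.7% were under 1000 bases, against 16.4% of tested genes. With the median deviation of each length class removed, an alternative added after seeing the data, 320 genes were variable, of which 291 were also variable without it, and 12 members of the accessory gland list were variable. The part of length in the order of the libraries was not tested beyond this.

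**Figure D5:**
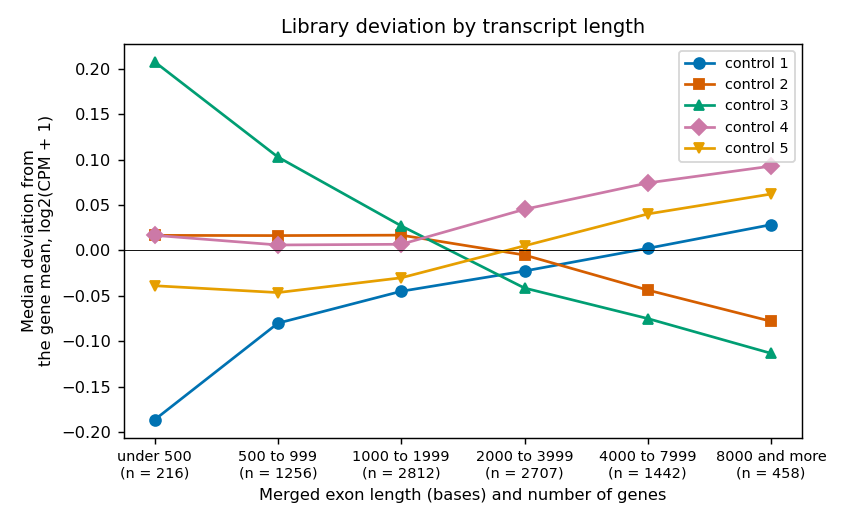
Median deviation of each library from the gene mean, log2(CPM + 1), in 6 classes of merged exon length, with the number of genes under each class. Controls 1 and 3 diverge in the shortest class (-0.19 and 0.21), and controls 3 and 4 in the longest (-0.11 and 0.09).

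Neuronal genes were highest in control 4. This held for 16 of 21 members, where 22.2% of all tested genes, and 39.6% of those with exons of 4000 bases and more, were highest. Syt1, the calcium sensor of synaptic vesicles, had 264, 272, 258, 325 and 284 CPM and nSyb, a vesicle fusion protein, 208, 213, 209.6, 249 and 224 CPM. The steps were small, 1.26-fold and 1.202-fold. ple, the tyrosine hydroxylase of dopamine synthesis and of cuticle tanning, was an exception at 84.6, 135, 67.0, 71.3 and 77.8 CPM, with control 2 high, and it spanned 1.26-fold without control 2 and 1.90-fold without control 3.

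Most ribosomal protein, glycolysis and ATP synthase genes were highest in control 2. The elongation factors were not: eEF1alpha1 had 7962, 7378, 6724, 7404 and 7499.8 CPM, highest in control 1, and eEF2 4084, 3890.1, 3548, 3822 and 4163 CPM, highest in control 5. Of 89 ribosomal protein genes above 10 CPM, 76 were highest in control 2, where 24.5% of all tested genes and 29.7% of those under 1000 bases were highest. None was variable, the median CV was 5.37%, and the sums were 44052, 48485, 44118, 45295 and 43763 CPM. RpL28 was the gene of lowest CV of all tested genes, 0.792% (392, 393, 389.9, 387 and 386 CPM). Of 14 glycolysis genes 12 were highest in control 2 and 10 lowest in control 4, where 8.04% of tested genes were lowest. Gapdh1, glyceraldehyde phosphate dehydrogenase, had 959, 1350.4, 1024, 937 and 1025 CPM, and Gpdh, of the glycerol phosphate shuttle, 881, 1214, 841, 724 and 837 CPM. Of 12 ATP synthase genes 11 were highest in control 2, with ATPsynC, the rotor ring subunit, at 1380.4, 1707, 1517, 1361 and 1397 CPM. Without control 2 the glycolysis sums ranged over 1.08-fold, the ATP synthase sums over 1.08-fold and the ribosomal protein sums over 1.04-fold.

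Turandot and bomanin genes were mostly lowest in control 4. Turandot genes encode peptides secreted into the haemolymph after stress and infection. All 4 members above 10 CPM were variable and the list summed to 625, 1077, 675, 342 and 958 CPM, 3.15-fold from control 4 to control 2. TotA had 440.4, 725, 438, 230.1 and 613 CPM and TotC 129, 252, 154, 66.8 and 263 CPM. Without control 4 the sums ranged over 1.72-fold and 2 members were variable, and in controls 1 to 3 alone only TotM was, at 11.7, 26.8, 40.8, 11.9 and 27.0 CPM in all 5 libraries. The bomanins and other short immune peptides summed to 1587, 1539, 1664, 1209.9 and 1681 CPM, with none variable and 11 of 14 genes lowest in control 4, where 8.04% of tested genes were lowest.

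Most blood cell genes were lowest in control 4. PPO2 and PPO1, prophenoloxidases of crystal cells that drive melanisation, had 145, 114, 96.7, 52.5 and 163 and 135, 125, 84.5, 58.0 and 163 CPM. Hml, a clotting protein of plasmatocytes, had 204, 152, 152, 124 and 219 CPM. Control 4 was lowest and control 5 highest for all 3. Of 10 haemocyte genes above 10 CPM, 6 were lowest in control 4, where 8.04% of tested genes were lowest. The other 4 were lowest in control 3, where 29% of tested genes were lowest. These 4 include Col4a1 (291, 274, 222, 236 and 308 CPM) and vkg (206, 179.7, 155, 166 and 211 CPM), the subunits of collagen IV and the most abundant members. Without control 4, or in controls 1 to 3 alone, neither PPO gene was variable. Antimicrobial peptides were low throughout, 341 ± 43.4 CPM for 18 listed genes, most of it from Drsl5 (111 ± 14.2 CPM) and Drsl4 (88.3 ± 15.6 CPM). Their sum was lowest in control 1, as were 4 of the 6 members above 10 CPM, and 1 was lowest in control 4. Of all tested genes, 24.5% were lowest in control 1 and 8.04% in control 4. Mtk, the antifungal metchnikowin, had 6.84, 31.1, 12.9, 22 and 13.2 CPM.

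Some other variable genes had control 2 and control 4 high and control 3 lowest, and examples of that order are given here. CG14499 had 3.04, 54.9, 0.980, 135 and 26.3 CPM, CG42825 11.9, 56.3, 2.71, 42.1 and 19.3 CPM and CG32368 18.7, 116, 13.7, 64.5 and 30.7 CPM. lectin-37Da, a C-type lectin, had 47.0, 119.6, 14.5, 112 and 45.8 CPM, and LysX, of the digestive lysozyme family, 10.7, 42.1, 9.05, 24.1 and 14.4 CPM. Others of the 25 most variable genes took different orders. CG34040 was highest in control 1, at 44.0, 23.8, 4.32, 16.8 and 15.8 CPM. CR33319 was highest in control 3, and CG43251 was far above the rest in control 2 only (values below). Of the 25 most variable genes 13 were highest in control 2 and 8 in control 5, and 16 were lowest in control 3. When control 2 was left out, 16 of these 25 were still among the 25 most variable, and in controls 1 to 3 alone 19 were.

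A pair of metallothionein genes was highest in control 5. MtnD, a metallothionein that binds copper, had 10.1, 11.1, 9.80, 11.3 and 29.4 CPM, and MtnC 36.3, 32.1, 59.8, 28.4 and 72.1 CPM. The next library was control 4 for MtnD and control 3 for MtnC, and neither was variable in controls 1 to 3 alone (1.13-fold and 1.87-fold). MtnD spanned 1.15-fold without control 5. MtnA, the most abundant metallothionein, was highest in control 3 at 789.6, 756, 959, 694 and 919 CPM and not variable. The P450 genes held 8 variable members of 60, or 3 without control 3 and 5 without control 2. Among them were Cyp6g1, known for its part in insecticide resistance, at 684, 449.7, 329.9, 342 and 512 CPM, and Cyp309a1 at 71.1, 69.8, 18.9, 26.4 and 36.1 CPM. The former spanned 1.55-fold without control 1 and 1.998-fold without control 3. Obp99b, an odorant-binding protein, had 169, 156, 58.4, 49.5 and 181 CPM.

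At the other end, 793 of the 8967 genes (8.84%) had a CV under 5%. The 8 steadiest were RpL28, CG8051, CG2182, dx, garz, Mitofilin, Coprox and slgA, with CVs from 0.792% to 1.31%. dx, a regulator of Notch signalling, had 14.1, 13.9, 14.0, 14.2 and 13.8 CPM, garz, an activator of Arf proteins in secretion, 177, 181, 179, 182 and 178 CPM and Coprox, an enzyme of haem synthesis, 41.6, 42.4, 42.1, 43.1 and 42.0 CPM. The CVs of all 8, chosen as the lowest of 8967, were below the spread that counting error alone gives on average at their depth, which was 1.19% for RpL28 and 6.27% for dx.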

How the data were processed

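Whole-fly poly(A) RNA went into stranded libraries that were read for 51 cycles from both ends, per the labels' protocols. The authors deposited raw counts per gene, whole numbers with different totals per library. The submitters' processing notes list STAR 2.6.1b, featureCounts 1.6.3, cutadapt 1.16 and DESeq2 1.20.0 and 1.22.2, with the builds dm6 and BDGP6 and no order or role. Those sources do not give the strand setting or the handling of reads that match several genes.

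Counts were scaled to CPM by library total (Python 3.11.15, pandas 2.3.3). The 8967 genes averaging 10 CPM or more were ranked by CV and called variable at a 2-fold ratio of highest to lowest library. Merged exon lengths came from the Ensembl 115 annotation for 14768 of 14865 genes. Symbols and coordinates are those of the authors' annotation sheet. Dispersion was estimated with edgeR 4.0.16 in R 4.3.3 and RLE factors with DESeq2 1.42.0. The spread script was tested on simulated data. PCR copies were not marked, and the floor of 3 counts covers counting error only.

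Of 460 list entries given by symbol, 458 matched. Ebp is in no list. The members and lists were chosen with earlier results of these data known. Named genes are the 30 highest, the 25 most and 8 least variable, and per list the 3 highest and the most variable member. Other named genes were chosen after their values were seen. Alternatives were TMM and RLE factors, minima of 1 and 50 CPM, 1.5-fold and 3-fold, levels per exon length, ranking by dispersion, each library left out, and the 3 libraries without a label conflict. A correction by exon-length class was added after seeing the data.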

Additional observations from a re-analysis of the deposited data

Results flagged for a closer look

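For 109 values with 5 libraries each, the gap of the most extreme library to its neighbour was compared with the range of the group, and 17 values exceeded the 95% limit of Dixon's test. Chance alone flags about 1 in 20 such groups, but that rate does not hold here: many of the values were named because they varied most between these same libraries, and values of related genes are not independent.

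Control 2 was the extreme library for 9 of them, with Ebp at 4563 CPM, EbpII at 1733 CPM, Sfp60F at 1126 CPM, Acp24A4 at 249 CPM, Sfp24Ba at 105 CPM, CG13905 at 85.5 CPM, CG43251 at 31.2 CPM, Nplp2 at 2774 CPM and ple at 135 CPM. Nplp2, a neuropeptide-like precursor, is one of the 30 highest genes and had 2053, 2774, 1941, 1851 and 2011 CPM. CG13905 and CG43251 had 22.9, 85.5, 12.3, 27.9 and 33.3 and 7.27, 31.2, 7.26, 10.7 and 7.90 CPM.

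Control 5 was extreme for Hsp68 at 1107 CPM, Hsp26 at 919 CPM, Hsp27 at 355 CPM, Hsp23 at 187 CPM, Hsp70Ba at 83.0 CPM and the metallothionein MtnD at 29.4 CPM. Control 3 was extreme for SERCA at 3284 CPM, and control 1 was low for sesB at 1774 CPM. The causes were not tested.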

How the results depend on the processing

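Of the 324 genes at least 2-fold apart, scaling by TMM or RLE factors gave 338 each, the exon-length correction 320, controls 1 to 3 alone 275, and leaving out 1 library 186 (without control 3) to 302. Other thresholds moved the count by construction: 1284 with a minimum of 1 CPM, 146 with 50 CPM, 1563 at 1.5-fold and 91 at 3-fold. Of the 25 most variable genes 16 (without control 2) to 22 were shared when 1 library was left out. Per exon length the 10 highest genes held 7.24% and the 100 highest 24.2%, and leaving out 1 library gave 6.73% to 6.92% and 20.3% to 20.5%. At least 2-fold sums were found for 2 lists, heat shock and Turandot, for 1 to 2 lists when 1 library was left out (1 without control 4) and for 1 in controls 1 to 3 alone. The biological coefficient of variation was 13.2% to 15.7% when 1 library was left out and 17.3% in controls 1 to 3. Summed CPM of 30 lists stayed within 1 SD in all 240 comparisons. Leaving libraries out, or using controls 1 to 3 alone, cannot move a mean by 1 SD. Those comparisons, most of the 240, could therefore not have come out otherwise. Of 147 named genes, calls were lost in 40 of 1322 comparisons and gained in none. Leaving libraries out cannot raise the ratio of highest to lowest library, so a gain there could come only through the minimum mean. Hsp70Ba kept its call without control 5, though it was under 10 CPM in every other library. Many of the 147 were not variable to begin with and had no call to lose. The number of variable members of a list moved by over 1.5 times in 29 of 261. The total without mitochondrial-encoded genes was not run, since these genes were not analysed here. No paired analysis was possible because there is 1 group. Depth limits genes under 1 CPM, where 3 counts equal 0.157 to 0.173 CPM.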

Other observations

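Genes of the circadian clock differed between libraries in opposite directions, although none of the 9 listed members was 2-fold apart. tim, a repressor of the clock, had 571, 473, 397, 789.7 and 575 CPM in controls 1 to 5 and Pdp1, an activator of the second loop, 512, 477, 446, 734 and 566 CPM. Both were highest in control 4. Clk, the activator of the first loop, had 67.3, 65.5, 66.5, 40.4 and 51.9 CPM, and cry, the blue light receptor, 206, 219, 160.4, 119 and 162 CPM, and both were lowest in control 4. vri, which represses Clk, had 386, 287, 309, 404 and 299 CPM and per, the partner of tim, 47.4, 46.3, 46.5, 57.9 and 47.2 CPM. Pdh, a retinal enzyme of photoreceptor support cells, was also lowest in control 4, at 261, 256, 259, 159 and 251 CPM.

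Chromosomes differed in the level of their genes. Protein-coding genes of at least 1 CPM had a median level per exon length, on the scale of TPM, of 26.7 on 2L, 27.3 on 2R, 25.99 on 3L, 25.02 on 3R and 19.4 on X. The 79 genes of chromosome 4 had a median of 42.4 and 11 genes of the Y a median of 4.15. These are levels across genes within 1 group of libraries, with no test.

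A pair of glutathione transferase genes, named after their values were seen, was low in controls 3 and 4. GstE7 and GstE8, which lie side by side on 2R, had 72.4, 38.5, 17.4, 17.9 and 60.3 and 43.7, 24.7, 11.8, 16.0 and 43.8 CPM, with controls 1 and 5 high in both. ninaD, a receptor for carotenoid uptake, had 9.39, 30.4, 58.0, 22.3 and 50.7 CPM, lowest in control 1. CR33319, an annotated pseudogene, was highest in control 3 at 7.81, 3.82, 27.4, 9.58 and 13.8 CPM. Cpr67Fb, a cuticular protein gene, had 99.8, 29.7, 30.04, 82.9 and 26.1 CPM, with controls 1 and 4 high.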
